A study of Saccharomyces cerevisiae with 40 samples.

Results

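The 10 genes described here serve iron uptake in the budding yeast Saccharomyces cerevisiae: the ferric reductase genes FRE2 (YKL220C), FRE3 (YOR381W), FRE4 (YNR060W), FRE5 (YOR384W) and FRE6 (YLL051C), the siderophore transporter genes ARN1 (YHL040C), ARN2 (YHL047C) and SIT1 (YEL065W), the multicopper oxidase gene FET3 (YMR058W) and the iron permease gene FTR1 (YER145C). They were taken by name, through the probe sets to which the platform annotation gives that single gene symbol. Each of the 10 had 1 such probe set among 9275 probe sets that were not controls, and no cell-wall mannoprotein gene was among them. A filter on low signal, at a mean intensity of about 11.0, left 7420 probe sets and 9 of the 10 genes; FRE5 did not pass it.

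Yeast cells take up iron by a pair of surface routes. In the reductive route, Fre reductases turn ferric iron into ferrous iron, which the oxidase Fet3 and the permease Ftr1 then carry inward as a complex. In the other route, transporters of the Arn family import iron bound to siderophores, small chelators that other microbes secrete and that baker's yeast does not make. When iron is scarce, the transcription factors Aft1 and Aft2 switch on most genes of both routes.

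The series asked what happens to the transcriptome when NMD2 is switched on. NMD2, also called UPF2, encodes a core factor of nonsense-mediated mRNA decay, the pathway that degrades transcripts on which translation ends early. All cells were HFY1400, in which NMD2 is disrupted by HIS3 (nmd2::HIS3). In the GAL-NMD2 groups these cells carried NMD2 under the galactose-inducible GAL1 promoter on a plasmid, and in the nmd2D groups they carried the empty URA3 vector. Samples of both strains were taken at 0, 10, 20, 40 and 60 min, in 4 replicates that the design calls independent, so that 40 arrays fell into 10 groups. On the medium the labels disagree, since the design names raffinose medium without uracil to which galactose was added and the sample protocols name galactose medium without uracil, at 30 °C. The time labels are used here as given. Galactose reached both strains, so the response of nmd2D is the background for that of GAL-NMD2.

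All levels are signal intensities from MAS5. Errors are SDs over 4 arrays unless named as standard errors (SE). Tests were run with limma on log2(intensity + 16), so folds understate changes of dim genes. A gene was called at a Benjamini-Hochberg adjusted p under 0.05 over all 7420 probe sets of a comparison. The interaction at a given time is the change since 0 min in GAL-NMD2 less the same change in nmd2D. It shares arrays with the comparison of the strains at 60 min and with the response within each strain, so these are readings of the same samples and not independent evidence. Levels of different genes come from different probes and are not set against each other.

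The cultures were checked first. GAL1 rose in both strains, to 3662 ± 1106 at 60 min in GAL-NMD2 and to 3155 ± 658 in nmd2D, against 108 ± 48.5 and 85.9 ± 14.2 at 0 min in the same strains. NMD2 read 1654 ± 212 at 60 min and 1038 ± 177 at 0 min in GAL-NMD2, against 889 ± 132 and 895 ± 34.9 in nmd2D, so its probe set gave signal in the disrupted strain and checks the disruption only in part (interaction log2 0.69, limma adjusted p = 0.0485). At 0 min the plasmid marker URA3 read 317 ± 119 in GAL-NMD2, against 1305 ± 969 in nmd2D. One culture series stood apart: HUG1, a DNA damage response gene, lay between 30.8 and 35.7 at every time in GAL-NMD2 replicate 2 and between 2621.4 and 5090.6 in the other GAL-NMD2 replicates, against 23.4 to 45.6 in nmd2D. Results for the iron genes are therefore given with and without that replicate where it decides a call. The median signal of an array at 60 min was 65.8 ± 3.73 in GAL-NMD2 and 81.7 ± 3.15 in nmd2D, while the trimmed mean was the same on every array, so another scaling is named where it changes a call.

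At 60 min, 4 of the 9 tested genes were lower in GAL-NMD2 than in nmd2D: the reductase genes FRE2 and FRE3 and the siderophore transporter genes ARN1 and ARN2. Over all probe sets, 11.9% were called lower in this comparison. The median log2 difference was -0.51 over the 9 genes and -0.05 over all probe sets. The same 4 genes also fell within GAL-NMD2 between 0 and 60 min, where 10.3% of all probe sets were called lower, whereas none of the 9 was called in nmd2D, where 0.256% of probe sets were called in either direction. The interaction, which sets the 2 responses against each other, called FRE3 and ARN2 lower, against 3.91% of all probe sets. With the replicate number as a block, FRE2 and ARN1 were called as well, which made 4 of 9 genes, against 9.70% of all probe sets. SIT1, FET3, FTR1, FRE4 and FRE6 were not called in either fit of the interaction. In a bulk RNA sample, fewer cells that make a transcript and less of it in each cell cannot be told apart.

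FRE2 encodes a ferric reductase of the plasma membrane. At 60 min its signal was 50.9, 108.1, 62.6 and 75.9 in GAL-NMD2 replicates 1 to 4, against 195.3, 286.3, 200.4 and 270.2 in nmd2D replicates 1 to 4. The groups did not overlap, and the highest GAL-NMD2 array lay well below the lowest nmd2D array. FRE2 was 2.85-fold lower in GAL-NMD2 (log2 -1.51, SE 0.22, limma adjusted p = 4.35e-06). At 0 min the GAL-NMD2 arrays read 130.2, 298.7, 147.4 and 166.0 and the nmd2D arrays read 186.0, 302.4, 261.9 and 271.1. FRE2 was thus already lower in GAL-NMD2 in 4 of 4 replicate numbers before induction, by log2 -0.48 on average, a difference that was not called (limma adjusted p = 0.9999; with the block, 0.253). Within GAL-NMD2 the signal at 60 min was 2.19-fold lower than at 0 min (log2 -1.13, SE 0.22, limma adjusted p = 0.000358). Set against nmd2D, whose change was log2 -0.09, the interaction was -1.03 (SE 0.31), just outside the threshold (limma adjusted p = 0.0519) and called with the block (adjusted p = 0.000147). Without the block it was also called with a pseudocount of 1 (adjusted p = 0.0391), with a filter at the 40th percentile (0.0425) and without the trend (0.0483). It was not called with a pseudocount of 64, without the filter, with median centring or quantile normalization alone, or with only the groups compared. Of the 19 alternatives tried, 6 called it, and 0 of the 8 fits that left out 1 replicate did.

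FRE3 encodes a reductase that acts on siderophore-bound iron. Its signal at 60 min was 70.5, 33.7, 152.4 and 170.3 in GAL-NMD2, against 221.0, 231.0, 230.3 and 174.5 in nmd2D, in the order of the replicate numbers. The groups did not overlap, but replicate 4 of both strains nearly met, and GAL-NMD2 replicate 2 was the lowest. The strain difference at 60 min was log2 -1.09 (SE 0.32, limma adjusted p = 0.0175), a signal 2.12-fold lower in GAL-NMD2. FRE3 began higher in GAL-NMD2, with 205.2, 296.1, 382.7 and 314.7 at 0 min, against 163.8, 273.3, 231.9 and 178.6 in nmd2D. That starting difference, log2 0.46 and present in 4 of 4 replicate numbers, was not called (limma adjusted p = 0.9999). Because of it, the fall within GAL-NMD2 was larger than the strain difference at its end: log2 -1.52 (SE 0.32, limma adjusted p = 0.000840), a 2.87-fold lower signal at 60 min. The change in nmd2D was 0.03, and the interaction was -1.55 (SE 0.45, limma adjusted p = 0.0428; with the block, 0.00171).

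Replicate 2 weighed on FRE3. Without GAL-NMD2 replicate 2 the strain difference at 60 min was log2 -0.71 (limma adjusted p = 0.174) and the interaction -1.17 (adjusted p = 0.245), so neither was called. The fall within GAL-NMD2 was still called without it, at log2 -1.14 (adjusted p = 0.0340). Leaving out nmd2D replicate 2 or nmd2D replicate 3 also ended the call of the strain difference, with limma adjusted p = 0.0591 and 0.0515, at values of -1.05 each. Of the 19 alternatives tried, 13 called the strain difference of FRE3, and all 19 called those of FRE2, ARN1 and ARN2. The interaction of FRE3 was called in 8 of the 19, and in 2 of the 8 fits that left out 1 replicate.

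**Figure D1:**
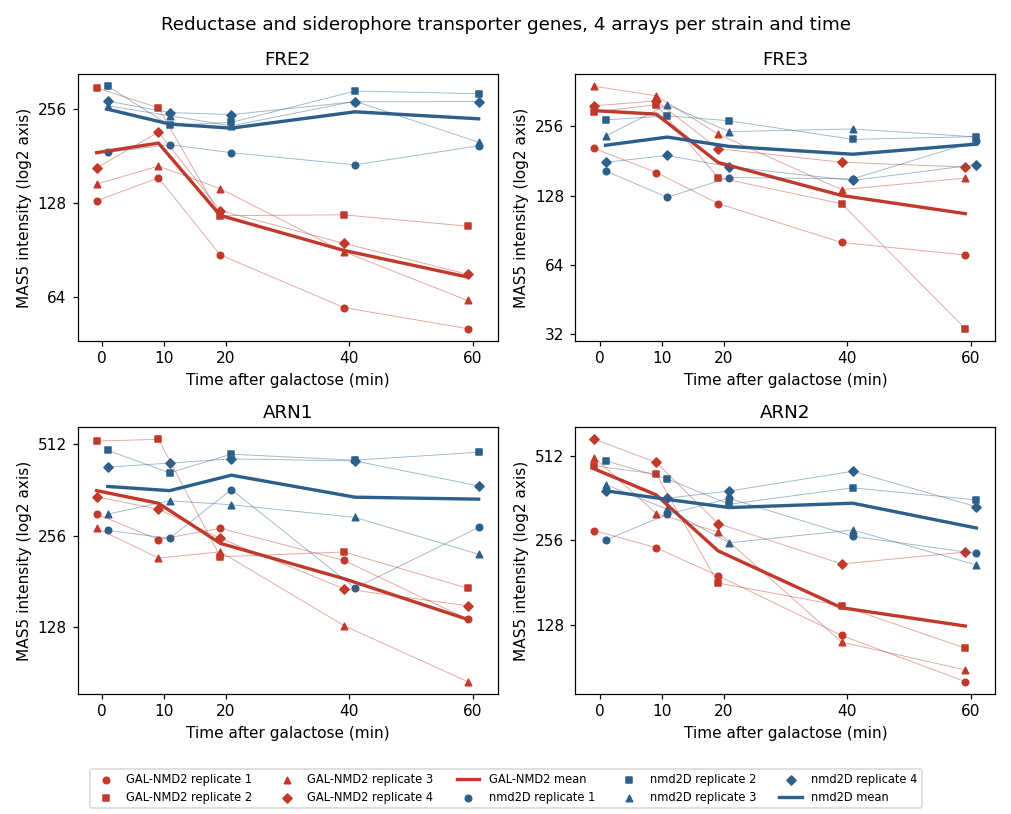
MAS5 signal (log2 axis) of FRE2, FRE3, ARN1 and ARN2 against minutes after galactose in GAL-NMD2 and nmd2D; points are single arrays, with 4 per group, and the thick lines join group means. The 4 genes declined in GAL-NMD2, to means of 74.4, 107, 135 and 127 at 60 min, while the nmd2D means at 60 min were 238, 214, 338 and 283.

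FRE6 encodes a reductase of the vacuole membrane. It read 81.1, 179.5, 98.8 and 114.6 at 60 min in GAL-NMD2, against 124.4, 230.5, 164.7 and 168.7 in nmd2D. The groups overlapped, because replicate 2 was high in both strains. The difference had the same sign in 4 of 4 replicate numbers and a size of log2 -0.51 (SE 0.23, limma adjusted p = 0.193). It was called with the replicate block (adjusted p = 0.00518, against 20.1% of all probe sets called lower in that fit), and without GAL-NMD2 replicate 2 (log2 -0.70, adjusted p = 0.0237). Centring each array on its median together with the block gave log2 -0.25 and no call (adjusted p = 0.139). The interaction of FRE6 at 60 min was -0.33 (SE 0.33, limma adjusted p = 0.9996). Part of its difference was present before induction, at log2 -0.18.

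FRE4 and FRE5, reductase genes of the same family, gave little signal. FRE4 lay between 9.1 and 23.0 over the 40 arrays, close to the filter, and its group means ran from 12.8 to 15.6. Its interaction at 60 min was log2 0.05 (SE 0.19), and it was not called in any of the 8 comparisons. FRE5 stayed between 0.1 and 3.1, with group means of 0.70 to 1.65, and was not tested. A fall of FRE5 was not detectable at such intensities, and the low signal of FRE4 left little room for one.

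ARN1 encodes a transporter of ferrichrome-type siderophores. Its signal at 60 min was 135.7, 171.7, 84.4 and 150.1 in GAL-NMD2, against 272.5, 482.3, 222.1 and 373.4 in nmd2D. All GAL-NMD2 arrays lay below all nmd2D arrays. ARN1 was 2.30-fold lower in GAL-NMD2 (log2 -1.20, SE 0.28, limma adjusted p = 0.00241). At 0 min the strains were alike in range, with 301.5, 524.7, 270.8 and 343.5 in GAL-NMD2 and 266.2, 489.1, 301.3 and 430.5 in nmd2D (log2 -0.05, SE 0.28). Within GAL-NMD2 the signal at 60 min was 2.47-fold lower than at 0 min (log2 -1.31, SE 0.28, limma adjusted p = 0.00114), and in nmd2D the change was -0.15 (SE 0.28). The interaction of -1.16 (SE 0.40) was not called (limma adjusted p = 0.116) but was called with the block (adjusted p = 0.00187), and it was negative in 4 of 4 replicate numbers, from -1.51 to -0.92. It was called in 3 of the 19 alternatives, each of them with the block, and in 0 of the 8 fits that left out 1 replicate.

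ARN2 encodes a transporter of triacetylfusarinine C, a siderophore of filamentous fungi. It read 80.2, 105.6, 88.3 and 232.2 at 60 min in GAL-NMD2, against 229.6, 356.4, 208.9 and 337.0 in nmd2D. GAL-NMD2 replicate 4 stood above the other 3 and overlapped the nmd2D range. ARN2 was 2.21-fold lower in GAL-NMD2 at 60 min (log2 -1.15, SE 0.27, limma adjusted p = 0.00252). Its fall within GAL-NMD2 was the largest of the 9 genes in the fit: log2 -1.80 (SE 0.27, limma adjusted p = 9.72e-06), a 3.49-fold lower signal at 60 min than the 277.1, 471.1, 503.8 and 586.2 at 0 min. In nmd2D it read 256.3, 491.7, 404.3 and 384.2 at 0 min, a change of log2 -0.42 by 60 min that was not called (SE 0.27, limma adjusted p = 0.9997). The interaction was -1.38 (SE 0.38, limma adjusted p = 0.0303; with the block, 0.000234). It lay between -1.55 and -1.10 in the 4 replicate numbers, since replicate 4 was high at both ends of the course. Without GAL-NMD2 replicate 2 the interaction was -1.31 (adjusted p = 0.119), and the strain difference stayed called at -1.11 (adjusted p = 0.0136). The interaction was also not called without GAL-NMD2 replicate 3 or without nmd2D replicate 1, 2 or 4. It was called in 3 of the 8 fits that left out 1 replicate, and in 11 of all 19 alternatives.

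SIT1, also known as ARN3, encodes a transporter of ferrioxamine-type siderophores and was not called lower in any of the 8 comparisons. At 60 min it read 954.9, 400.5, 452.0 and 1112.2 in GAL-NMD2, against 471.7, 325.5, 280.6 and 367.9 in nmd2D. GAL-NMD2 was higher in 4 of 4 replicate numbers, although the groups overlapped. The difference was log2 0.87 (SE 0.41, limma adjusted p = 0.209; with the block, 0.0548), and the interaction was 0.63 (SE 0.59, limma adjusted p = 0.9996). The strain difference was called higher only where the block was joined with another scaling: adjusted p = 0.0126 with median centring, where 27.4% of all probe sets were called higher, and 0.0479 with quantile normalization, where 9.54% were. SIT1 varied between GAL-NMD2 cultures over the course. Replicate 1 read 1130.8 at 20 min and 1195.9 at 40 min, whereas the other 3 lay between 206.9 and 365.3 at 20 min and between 211.4 and 778.9 at 40 min. In nmd2D the group mean was 583 ± 124 at 0 min and 361 ± 81.7 at 60 min, a log2 change of -0.67 (SE 0.41) that was not called.

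FET3 and FTR1 encode the oxidase and the permease that act as one complex. FET3 read 2595.0, 1778.0, 786.2 and 1893.2 at 60 min in GAL-NMD2, against 2379.3, 1450.8, 778.1 and 1405.2 in nmd2D. Replicate by replicate the strains moved together, with GAL-NMD2 slightly higher in 4 of 4. The strain difference was log2 0.21 (SE 0.36, limma adjusted p = 0.870). FET3 began lower in GAL-NMD2 in 4 of 4 replicate numbers at 0 min, by log2 -0.32 on average (limma adjusted p = 0.9999). It changed by -0.12 within GAL-NMD2 and by -0.65 (SE 0.36) within nmd2D, neither of them called, and its interaction of 0.53 (SE 0.51) was positive in 4 of 4 replicate numbers without being called (limma adjusted p = 0.9996; with the block, 0.359). With quantile normalization and the block together, a fit chosen after seeing the data, the change within nmd2D was called lower (limma adjusted p = 0.0491). In that fit 1.43% of all probe sets were called lower within nmd2D. It was the only 1 of the 19 alternatives to call this change.

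FTR1 read 631.1, 283.9, 162.9 and 277.1 at 60 min in GAL-NMD2, against 677.0, 278.4, 234.2 and 299.8 in nmd2D. Replicate 1 was the highest of its group in both strains, and the groups overlapped over nearly their whole range. The strain difference was log2 -0.17 (SE 0.47, limma adjusted p = 0.935) and the interaction 0.21 (SE 0.67, limma adjusted p = 0.9996). The SEs of the interaction, 0.67 for FTR1 and 0.59 for SIT1, were larger than the 0.31 of FRE2, so the precision for these genes was lower.

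**Figure D2:**
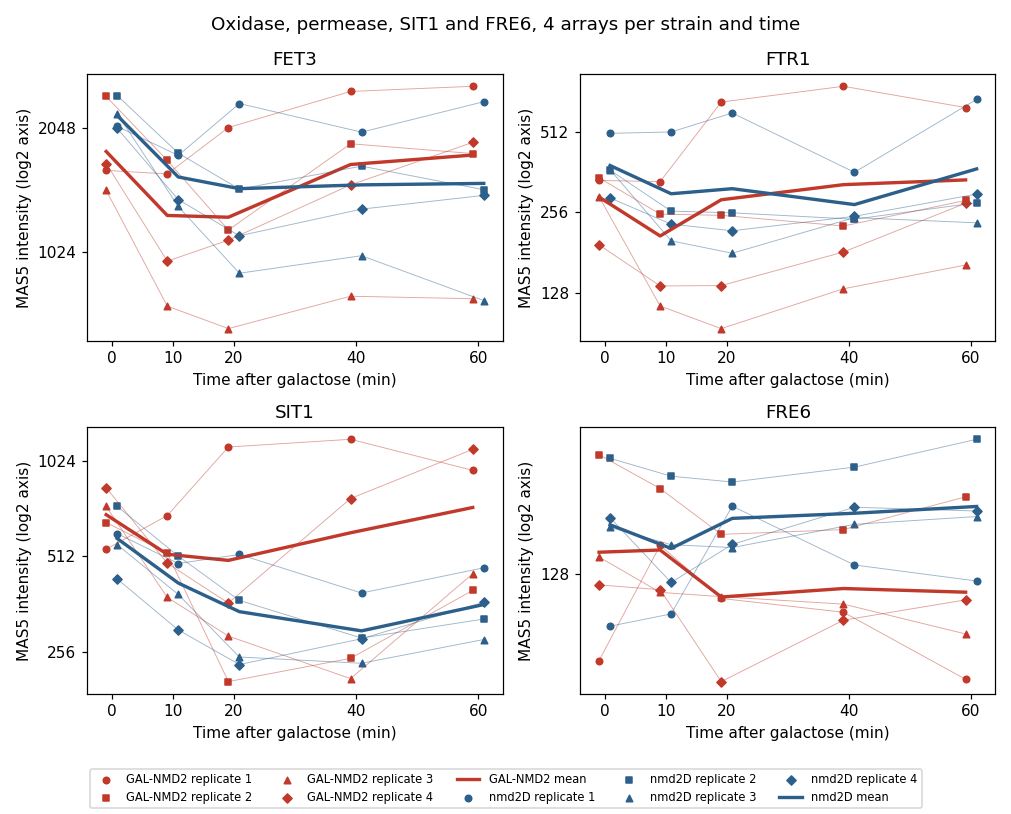
MAS5 signal (log2 axis) of FET3, FTR1, SIT1 and FRE6 against minutes after galactose in GAL-NMD2 and nmd2D; points are single arrays, with 4 per group, and the thick lines join group means. At 60 min the groups overlap for each of the 4 genes, and replicate 1 of FTR1 stands above the others in both strains.

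The course of the decline was similar in the 4 genes. At 10 min none of the 9 genes was called in the interaction (0% of all probe sets were called, 59 reached an unadjusted p under 0.05, and 261 did so with the block), and the interaction estimates ran from -0.22 for ARN2 to 0.27 for FRE2. The GAL-NMD2 means at 0, 10, 20, 40 and 60 min were 186 ± 76.8, 199 ± 47.4, 117 ± 22.6, 90.5 ± 23.9 and 74.4 ± 24.7 for FRE2. They were 300 ± 73.2, 289 ± 86.4, 178 ± 52.9, 128 ± 41.0 and 107 ± 65.3 for FRE3. The drop between 10 and 20 min exceeded the SD of both groups in FRE2 and FRE3. ARN1 had means of 360 ± 114, 327 ± 142, 241 ± 24.0, 185 ± 43.7 and 135 ± 37.1, and its drops between 20 and 40 min and between 40 and 60 min exceeded the SDs of the groups they joined. ARN2 had means of 460 ± 131, 371 ± 112, 235 ± 57.4, 147 ± 45.7 and 127 ± 71.2, with drops beyond the SDs between 10 and 20 min and between 20 and 40 min. The means of ARN2 at 40 and 60 min, and those of FRE2 and FRE3, differed by less than the larger SD of the 2 groups.

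In nmd2D the same genes stayed in a narrow band. FRE2 means lay between 222 ± 25.8 and 255 ± 49.4 over the 5 times, FRE3 means between 194 ± 51.2 and 230 ± 87.8, and ARN1 means between 338 ± 115 and 405 ± 73.4. ARN2 had its highest mean at 0 min, 384 ± 97.2, and its lowest at 60 min, 283 ± 74.5. For FRE2, FRE3 and ARN1 the highest and lowest of these means differed by less than the larger SD, and for ARN2 by slightly more.

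Strain differences opened in the same window. At 20 min the 4 GAL-NMD2 arrays lay below the 4 nmd2D arrays for FRE2 and ARN1, which was so for 2.76% of all probe sets. At 40 min this held for FRE2 and ARN2 (10.3% of all probe sets), and at 60 min for FRE2, FRE3 and ARN1 (13.8%). None of the 9 genes had the GAL-NMD2 arrays all above the nmd2D arrays at any time. The difference of FRE2 per replicate number was log2 -0.85 ± 0.16 at 20 min, -1.33 ± 0.10 at 40 min and -1.51 ± 0.18 at 60 min (n = 4 each), the narrowest spread of the 4 declining genes. ARN1 differed by -0.70 ± 0.31, -0.77 ± 0.72 and -1.20 ± 0.20 at these times, and nmd2D replicate 1 at 40 min, with 171.7, lay below its GAL-NMD2 partner of 212.0. FRE3 spread widely, from -2.31 to -0.03 at 60 min.

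No test compared the strains directly at 20 or 40 min, so these separations have no formal counterpart there. The interaction was tested at both times, but it subtracts the difference already present before induction. At 20 min no gene was called in the interaction (0.0135% of all probe sets were called, 117 reached an unadjusted p under 0.05, and 465 did so with the block), where FRE2 stood at log2 -0.37, FRE3 at -0.69, ARN1 at -0.65 and ARN2 at -0.73. At 40 min none was called either, against 1.50% of probe sets called lower, and ARN2 came nearest (log2 -1.40, SE 0.38, limma adjusted p = 0.0525). With the block, ARN2 (adjusted p = 0.000350) and FRE2 (log2 -0.85, adjusted p = 0.00264) were called at 40 min, against 6.64% of probe sets, while FRE3 (adjusted p = 0.0704) and ARN1 (0.0929) were not. Before induction, no gene was called between the strains, with 0.0135% of all probe sets called. There, 147 probe sets reached an unadjusted p under 0.05, and 491 did so with the block.

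**Figure D3:**
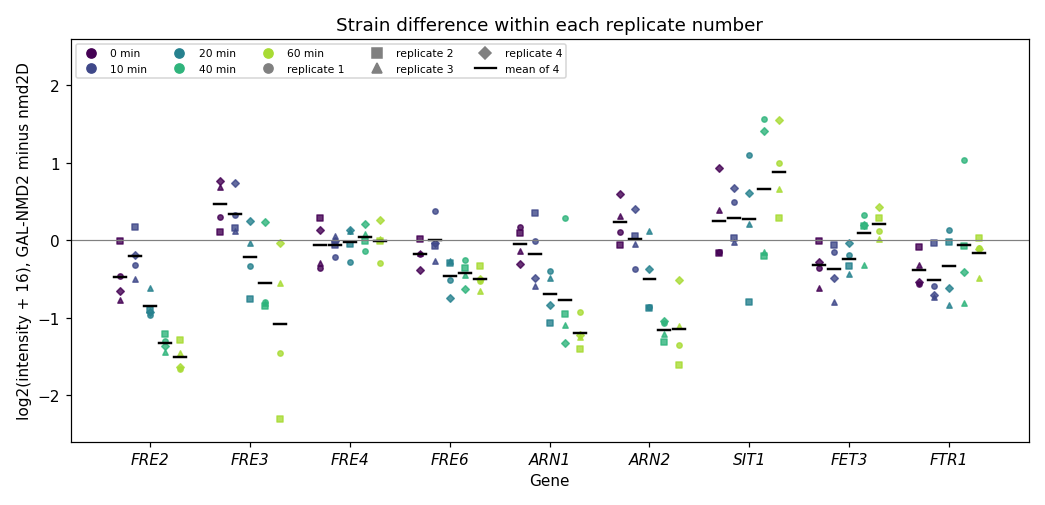
Difference between the strains (GAL-NMD2 minus nmd2D, log2 of intensity + 16) in each of the 4 replicate numbers at 0, 10, 20, 40 and 60 min for the 9 tested genes; points are replicate numbers, short bars are their means, and the line at 0 means equal signal. FRE2, ARN1 and ARN2 lie below 0 in 4 of 4 replicate numbers at 60 min, as does FRE3 with the widest scatter, whereas SIT1 and FET3 lie above 0 in 4 of 4.

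Another scaling moved some of these calls. When each array was centred on its median, the split of all called probe sets at 60 min became 467 lower and 440 higher, against 885 lower and 32 higher without it, and the median of all probe sets moved to log2 0.21, against -0.05. FRE2 (log2 -1.25, limma adjusted p = 0.000292), ARN1 (-0.94, 0.0342) and ARN2 (-0.89, 0.0394) were still called lower, with 6.29% of all probe sets called lower, and FRE3 was not (-0.83, 0.0896). The fall within GAL-NMD2 was called for the same 4 genes under all 19 alternatives tried. For the interaction, centring or quantile normalization alone ended the calls of FRE3 and ARN2. Joined with the replicate block, both scalings called FRE2, FRE3, ARN1 and ARN2 lower, against 6.09% of probe sets with centring and 7.13% with quantile normalization.

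Replicates deviated from their group means in related ways for some of the 9 genes, over the 40 arrays. FET3 and FTR1 deviated together with Pearson r = 0.84, and SIT1 went with both (r = 0.69 with FTR1 and 0.67 with FET3). FRE2 deviated with FRE6 (r = 0.70), ARN1 (0.68) and ARN2 (0.55). Across these sets of genes r had either sign: FRE2 had r = -0.48 with FTR1 and -0.44 with SIT1, and FRE3 had r = -0.59 with FTR1, whereas ARN1 had r = 0.37 with FET3 and ARN2 had 0.15 with SIT1. FRE3 deviated with ARN2 (r = 0.45) but not with ARN1 (-0.01) or FRE6 (0.07). Arrays share their scaling and cultures share a replicate number, so these are descriptions of the arrays and not independent points. Over the 10 group means, ARN1 and ARN2 (r = 0.95), FRE3 and ARN2 (0.94) and FRE2 and ARN1 (0.94) had similar courses. The other pairs of these genes had lower r: FRE2 and ARN2 0.88, FRE3 and ARN1 0.87, and FRE2 and FRE3 0.78. FRE6, which was not called in the interaction, had r = 0.90 with FRE2, 0.78 with ARN1, 0.65 with ARN2 and 0.54 with FRE3.

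Most of the 10 genes sit near chromosome ends. In the R64 gene order, 8 of 10 lie within 18 annotated genes of the nearest end, a distance set by the outermost of these 8, as do 9.45% of the 6431 genes of the nuclear chromosomes: FRE2 3 genes away, ARN2 4, ARN1 11, FRE5 11, SIT1 12, FRE3 15, FRE6 15 and FRE4 18. FTR1 lies 55 genes and FET3 215 genes from an end. The 4 genes that fell are all in the first set, but so are SIT1, FRE4, FRE5 and FRE6, which were not called in the interaction or not tested. Nearby genes were read for the members called in the interaction. RDR1, the neighbour of FRE3 and a gene for a repressor of multidrug resistance transporters, was lower too (interaction log2 -1.03, SE 0.26, limma adjusted p = 0.0145). The other neighbour, YOR381W-A, had no probe set with a single symbol. Of the neighbours of ARN2, COS8 was not called (log2 -0.17, SE 0.35), and PAU13, whose probe set is marked as shared by a gene family, stood at -1.15 (SE 0.38, limma adjusted p = 0.0934; with the block, 0.00106).

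Other genes followed similar courses over the 10 group means. The 3 genes with the highest Pearson r to FRE3 were USE1 (r = 0.969), INO4 (0.966) and DPB3 (0.965). For ARN2 they were XDJ1 (0.985), ENB1 (0.978) and PEX10 (0.977). Of these 6 genes, PEX10 was called in the interaction at 60 min (log2 -1.09, SE 0.23, limma adjusted p = 0.00350). DPB3 (log2 -0.93, adjusted p = 0.0519), INO4 (-0.91, 0.0589), USE1 (-0.55, 0.206), XDJ1 (-0.62, 0.9996) and ENB1 (-1.31, 0.290) were not. ENB1 is the fourth member of the ARN family, a transporter of enterobactin. It is also on the list of further iron genes described next, so it was chosen by function as well as met by course.

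A list of 36 further iron genes, each represented by 1 probe set that passed the filter, was read beside the members. In the interaction at 60 min, none was called by limma, with 4 of 36 at an unadjusted p under 0.05, all lower, and the median of the list was log2 0.02, against -0.01 over all probe sets. With the block, 4 of 36 were called, all lower: ENB1, FIT1, MAC1 and CTR3. This share is near the 9.70% of all probe sets called lower in that fit. Between the strains at 60 min, 2 were lower, against 11.9% of all probe sets, and 1 was higher, against 0.431%. With the block these counts became 8 lower and 2 higher, against 20.1% and 2.10% of all probe sets. Within GAL-NMD2, 4 of 36 fell, close to the 10.3% of all probe sets, and 1 rose, against 1.19%. With the block 7 fell and 2 rose, against 18.8% and 4.81% of all probe sets. The genes called higher with the block were FIT2 and SMF3 between the strains and YFH1 and ISU2 within GAL-NMD2. FIT2 and SMF3 already stood higher in GAL-NMD2 at 0 min, by log2 1.44 and 0.73 on average, against 1.96 and 0.89 at 60 min. Their interactions at 60 min, 0.53 and 0.16, were not called in either fit. Within nmd2D, and between the strains at 0 min, none was called, with 1 and 2 at an unadjusted p under 0.05.

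Among the 12 genes of surface uptake on that list, ENB1 came nearest to the members. Its signal at 60 min was 223.9, 480.5, 329.8 and 944.6 in GAL-NMD2, against 658.0, 1392.1, 876.5 and 1374.3 in nmd2D. It was lower in GAL-NMD2 in 4 of 4 replicate numbers (log2 -1.22, SE 0.39, limma adjusted p = 0.0336), and it fell within GAL-NMD2 (log2 -1.51, adjusted p = 0.00757). The interaction was -1.31 (SE 0.56, limma adjusted p = 0.290; with the block, 0.000105). Thus of the 4 ARN family genes, ARN1, ARN2 and ENB1 fell within GAL-NMD2, where 10.3% of all probe sets were called lower, and SIT1 was not called. These genes were put together with earlier results of these data known. FIT1 to FIT3 encode cell-wall mannoproteins that retain siderophore iron. FIT1 fell within GAL-NMD2, to 62.1 ± 19.2 at 60 min, against 152 ± 42.3 at 0 min (log2 -1.10, adjusted p = 0.00422), and FIT3 had an interaction of -0.72 (SE 0.33, adjusted p = 0.383). FIT2 was higher in GAL-NMD2 at 60 min (log2 1.96, SE 0.65, limma adjusted p = 0.0405), but unevenly: it read 1108.9, 120.0, 190.2 and 1340.1 in GAL-NMD2, against 116.3, 115.5, 70.9 and 106.1 in nmd2D, and was not called within GAL-NMD2. FRE1, the principal surface ferric reductase gene, had an interaction of -0.09 (SE 0.49).

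Of the 7 regulators, GRX4 and YAP5 were called in some comparison and the Aft factors were not. These calls lay between the strains at 60 min and within GAL-NMD2, where 11.9% and 10.3% of all probe sets were called lower. With all arrays, no regulator was called in the interaction at any time, with or without the block. AFT1 had an interaction of log2 0.11 (SE 0.29) and AFT2 of -0.01 (SE 0.24). GRX4 encodes a glutaredoxin that restrains Aft1 when iron is ample. It was lower in GAL-NMD2 at 60 min (log2 -1.11, SE 0.29, limma adjusted p = 0.00650) and within GAL-NMD2 (log2 -1.13, adjusted p = 0.00610), with 370.8, 200.4, 140.2 and 161.6 at 60 min in GAL-NMD2, against 315.9, 518.0, 480.5 and 557.7 in nmd2D. Replicate 1 did not share that direction, and the interaction was not called (log2 -0.98, SE 0.41, adjusted p = 0.274; with the block, 0.0925). GRX3, its paralogue, stood at 0.07 (SE 0.25). YAP5, an activator of iron storage genes, fell within GAL-NMD2 by 0.41 on the log2 scale (adjusted p = 0.0215).

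Few genes of the remaining lists were called. None of the 6 genes of copper supply was called at 60 min without the block. That list holds CTR1, which imports copper, and ATX1 and CCC2, which deliver it to Fet3. With the block MAC1, the copper-sensing activator, had an adjusted p of 0.0321 at an interaction of log2 -0.85, and CTR3 had 0.0276 at -0.59. Of the 11 genes of iron storage and use, YFH1, the frataxin gene, rose within GAL-NMD2 (log2 0.42, limma adjusted p = 0.0445), and the median interaction of that list was 0.12.

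**Figure D4:**
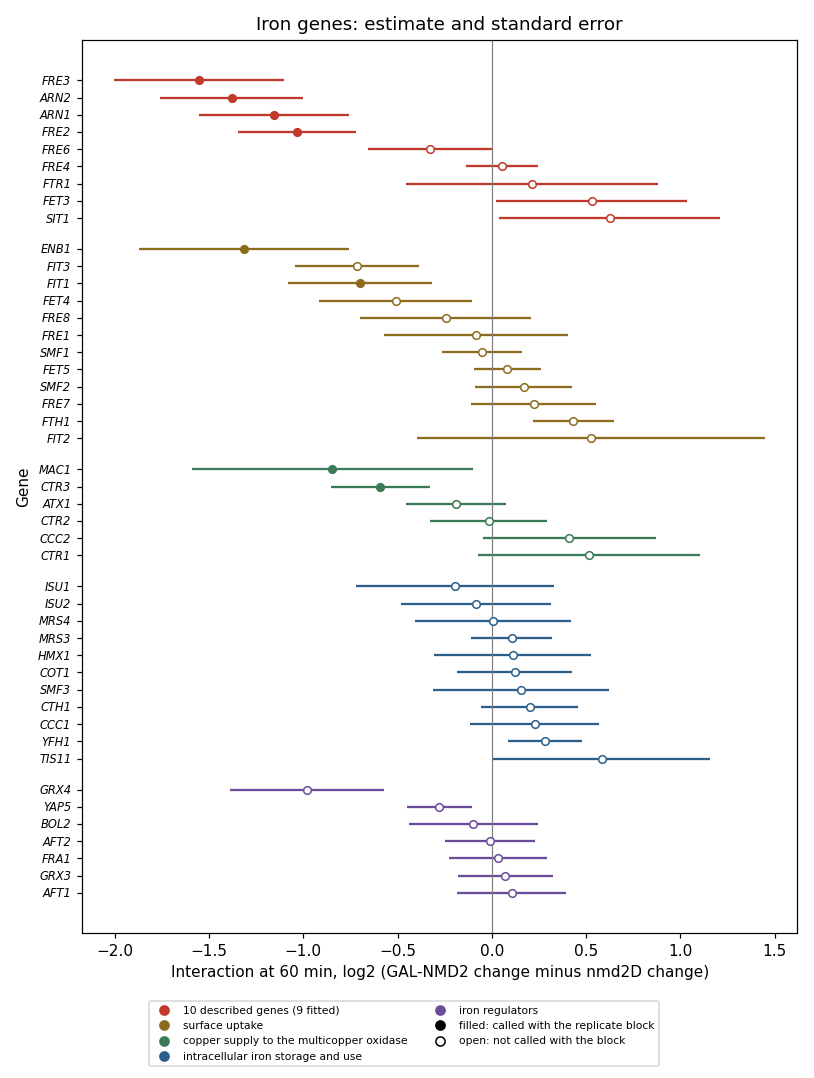
Interaction at 60 min (log2, change in GAL-NMD2 minus change in nmd2D, with SE) for the 9 tested genes and 36 further iron genes in 4 lists; filled points are called with the replicate block and open points are not. FRE2, FRE3, ARN1 and ARN2 lie between -1.55 and -1.03, close to ENB1 at -1.31, whereas the oxidase, permease, SIT1 and the Aft regulators lie near or above 0.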

How the data were processed

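RNA was measured on 40 Affymetrix arrays, 1 per sample. Per the labels' protocols, hot phenol was used to extract RNA, and biotinylated cRNA was made from 6 ug of it. Per the submitters' processing notes, MAS5 made the deposited signal intensity. Its version is not given in the sources used here. These intensities are on a linear scale, and their mean over the middle 96% lay between 250.155 and 250.222 on every array. A change is therefore relative to the rest of its array. Median signal was 61.3 to 86, the 3-prime to 5-prime actin ratio 1.38 to 2.95, and the correlation within groups 0.960 to 0.989. The actin ratio was highest in replicate 3, at 2.26 to 2.95 in both strains, against 1.38 to 2.14 on all other arrays. Whether this bears on the calls was not tested. No arrays were identical. The number of arrays limits the precision.

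Of 9335 probe sets, 60 were controls. Of the others 6504 had 1 gene symbol, 328 several and 2443 none. Gene names come from the platform annotation and gene order from the R64 gene table; no genome was used, so no position or sequence is given and cross-hybridization was not examined. Values were taken as log2(intensity + 16), and probe sets below the 20th percentile of the mean were left out, which left 7420. A model with 1 mean per group (10 groups; lmFit, then eBayes with trend) was fitted with limma 3.58.1 under R 4.3.3. It gave 8 comparisons: the interaction at 10, 20, 40 and 60 min, GAL-NMD2 against nmd2D at 0 and 60 min, and the 60 min change of either strain. The fit was tested on simulated data.

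The labels number the replicates without saying that a number marks a shared day. Deviations from group means correlated above 0.1 in 51 of 52 pairs of same-numbered arrays, with 0.068 as the exception, for the strains at 20 min. The lowest was 0.321 for the 40 and 0 min pairs and 0.368 for the 60 and 0 min pairs, so the numbers were taken to pair the samples at those times. Blocked values stand beside results they change. Alternatives, 19 in all, changed the block, pseudocount, filter, scaling, trend, groups fitted and replicates; the scalings joined with the block were chosen after seeing the data.

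The members and the 4 further lists were chosen with earlier results of these data known. Genes named are the 10 members, every listed gene called in a comparison, the 4 listed genes with the largest interaction at 60 min, NMD2, URA3, HIS3, GAL1 and HUG1 as checks, and the neighbours and 3 most similar genes of each member called in the interaction. Other genes of the lists (FRE1, AFT1, AFT2, GRX3, CTR1, ATX1, CCC2, CTR3, SMF3 and ISU2) are named for their roles or for a call with the block, after their values were seen. HIS3, the disruption marker, had an interaction of log2 -0.80 (SE 0.66).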

Additional observations from a re-analysis of the deposited data

Results flagged for a closer look

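In each group of 4 arrays, the highest and lowest values were set against the rest by Dixon's ratio at its 95% critical value. Of 132 groups tested, 11 held an array apart, where chance gives about 1 in 20.

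Replicate 1 was the array apart in 8 of these. FTR1 read 757.9 in GAL-NMD2 replicate 1 at 40 min (the others lay between 132.8 and 227.9). In nmd2D replicate 1, FTR1 read 361.7 at 40 min (others 241.6 to 247.7) and 677.0 at 60 min (others 234.2 to 299.8). FRE3 read 161.2 in GAL-NMD2 replicate 1 at 10 min, below the 318.2 to 347.9 of the others. FRE4 read 23.0 in nmd2D replicate 1 at 20 min (others 9.8 to 11.3). RDR1, the neighbour of FRE3, read 433.2 in GAL-NMD2 replicate 1 at 0 min (others 296.6 to 310.7). The checks NMD2 (842.6, others 908.9 to 914.3) and URA3 (2750.3, others 686.7 to 942.3) stood apart in nmd2D replicate 1 at 0 min.

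Other arrays stood apart for 3 genes. ARN2 read 232.2 in GAL-NMD2 replicate 4 at 60 min (others 80.2 to 105.6). FRE6 read 155.6 in GAL-NMD2 replicate 2 at 40 min (others 104.9 to 112.5). FRE5, close to no signal, read 1.9 in GAL-NMD2 replicate 4 at 40 min (others 0.1 to 0.4).

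The 2 strains' changes over 60 min differed by the limma interaction test for FRE3 (log2 -1.55) and ARN2 (log2 -1.38).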

How the results depend on the processing

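Under the replicate block, the interaction called 4 genes at 60 min (2 without it) and 2 at 40 min (0 without it), and 4 of the 36 further iron genes at 60 min (0 without it). At 60 min the interaction called 3 genes (FRE2, FRE3 and ARN2) with pseudocount 1, a filter at the 40th percentile or no trend, 1 with pseudocount 64 or no filter and 0 with median centring, quantile normalization or only the groups compared. Leaving out 1 replicate gave 0 to 2: 0 without GAL-NMD2 replicate 2 or 3 or nmd2D replicate 1, 2 or 4. It gave 4 with either scaling and the block. At 40 min it called 1 (ARN2) with pseudocount 1, a filter at the 40th percentile or no trend, and 0 to 1 without 1 replicate. It called 2 with either scaling and the block, where 4.81% of all probe sets (centring) and 5.75% (quantile normalization) were called lower. The share over all probe sets was not counted for the fits with another pseudocount, filter or trend, with only the groups compared or without 1 replicate. For the further iron genes, leaving out 1 replicate gave 0 to 1 (GRX4, without GAL-NMD2 replicate 1), centring with the block 1 and quantile normalization with the block 2. Within nmd2D, quantile normalization with the block called 1 (FET3, lower), against 1.43% of all probe sets called lower. The cause of these changes was not tested. The count within GAL-NMD2 stayed at 4, that between the strains at 60 min at 3 to 5, and those at 0, 10 and 20 min at 0. The block changed no other call of the 9 genes except FRE6 between the strains. FRE2, ARN1 and ARN2 were called between the strains at 60 min in 19 of 19 alternatives and FRE3 in 13. None of the differences recomputed for these genes changed sign under the 19 alternatives. Only differences called in the main fit or in a fit with the block were recomputed, so the sign of the smaller ones was not examined.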

Other observations

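At 0 min, FIT2 read 215.7, 361.0, 871.9 and 1702.2 in GAL-NMD2 replicates 1 to 4, against 128.7, 379.8, 185.6 and 198.9 in nmd2D, so its excess in GAL-NMD2 was present in 3 of 4 replicate numbers before induction. The exception was replicate 2. GAL-NMD2 replicate 2 is also the culture without the HUG1 signal of the other GAL-NMD2 replicates.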
